A study of Mus musculus with 8 samples.

Results

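Among the droplets of B16F10 melanomas, 1278 barcodes held RNA of pigment genes and almost no mitochondrial RNA, and they are called mitochondria-poor barcodes here. A barcode, which stands for the contents of 1 droplet, belonged to the set when it held 200 to 5000 genes and under 3000 unique molecular identifiers (UMIs, the counted RNA molecules). It also had under 1% of its UMIs from mitochondrial (mt-) genes and at least 1 UMI from the 5 pigment genes Mlana, Pmel, Dct, Tyr and Tyrp1. The 1278 barcodes were 3.05% of all 41925 barcodes and held 0.470% of all UMIs. The barcodes were thus chosen by their UMIs, genes detected, mt- share and pigment UMIs, and these quantities are given as descriptions without a test.

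Single-cell RNA sequencing was done on 8 subcutaneous B16F10 tumours of about 300 mm3, 1 library per tumour, to ask what the stress-response transcription factor ATF4 of the host contributes to a tumour. B16F10 is a mouse melanoma cell line whose cells carried Atf4 in every tumour, so the genotype was that of the host. The hosts, labelled as 12 weeks old and on a C57BL/6 background, were 4 mice with Atf4 (Atf4 WT/WT, WT below) and 4 without it (Atf4 Δ/Δ, KO below). Per the study's methods all hosts carried Rosa26::CreERT2, a tamoxifen-inducible Cre that is present throughout the body, and both groups received tamoxifen by oral gavage, which removed Atf4 where the gene was floxed. The WT hosts were 2 males and 2 females, and the KO hosts were 3 males and 1 female. The study kept barcodes with 200 to 5000 genes and at most 7.5% mt- UMIs. Applied here, these limits leave 28411 of the deposited barcodes, and by its own limits the rule places all 1278 mitochondria-poor barcodes among them. The study also took out a cluster that it judged to be dead cells, and the number of cells it reports is lower.

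Mitochondrial transcripts are made and kept inside mitochondria, and the long noncoding RNAs Malat1, Neat1 and Kcnq1ot1 stay mostly in the nucleus. Messenger RNAs for secreted and membrane proteins are translated at the endoplasmic reticulum (ER), whose membrane is continuous with the nuclear envelope, while mRNAs for soluble proteins are translated in the cytosol. A droplet can also capture a cell that lost part of its contents, a bare nucleus, a fragment of a cell, or free RNA.

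Barcodes of the same tumours in 2 other classes served for comparison. Intact melanoma barcodes had at least 4000 UMIs, an mt- share of 2 to 7.5% and at least 0.3% of UMIs from the 5 pigment genes, and there were 21912 of them. Low-RNA barcodes had the same gene, UMI and pigment limits as the mitochondria-poor set but an mt- share of 2 to 7.5%, and there were 2181. Levels are given as CPM, counts per 1000000 of the UMIs summed over all barcodes of a class in a tumour, with the mt- genes and the 5 pigment genes left out of the total. The sum for the mitochondria-poor barcodes of a tumour held 84058 to 401104 such UMIs, so that 3 counts correspond to 7.48 to 35.7 CPM.

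The set held 225, 117, 218 and 235 barcodes in WT tumours 1 to 4, and 93, 229, 98 and 63 in KO tumours 1 to 4. A mitochondria-poor barcode had a median of 1235.5 UMIs (500 to 2996) and 727 genes, whereas an intact barcode had 10772 UMIs and 3282 genes. The median mt- share was 0.191% against 5.65% in intact barcodes, and 188 barcodes (14.7%) had no mt- UMI. Low-RNA barcodes, with a median of 1582 UMIs, had a median mt- share of 4.60%. The mt- mRNAs were low together: mt-Atp6, the most abundant, took 0.0721% ± 0.0128 of UMIs in mitochondria-poor barcodes and 1.37% ± 0.105 in intact ones (SD, n = 8 tumours). mt-Co1, a subunit of respiratory complex IV, took 0.0276% ± 0.00491 and 0.585% ± 0.0580.

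Barcodes just inside and just outside the limits were set side by side without a test. The 230 barcodes just inside the mt- limit (0.5 to 1%) had 4.93% of their summed UMIs from Malat1, and the 170 just outside it (1 to 1.5%) had 3.73%. Barcodes without Malat1 UMIs were 19.6% between 0.5 and 1% mt- UMIs and 6.59% between 1 and 2%, and barcodes with at least 2 UMIs of host cell markers were 6.09% and 23.5%. The 142 barcodes just inside the UMI limit had 4.10% of their summed UMIs from Malat1, and the 100 just outside it that otherwise met the rule had 3.54%. Only 67 barcodes (5.24%) entered with a single pigment UMI, and 31 that otherwise met the rule had none, with Malat1 at 2.35% and 3.64% of summed UMIs. The median pigment content was 11 UMIs, or 1.01% of a barcode's UMIs. In 692 barcodes of under 3000 UMIs with at least 10 UMIs of host cell markers, which should make no pigment RNA, it was 2 UMIs, or 0.105%, at a median depth of 1502 UMIs. Of these 692 barcodes, 81.9% had at least 1 pigment UMI, so a single pigment UMI does not by itself mark a melanoma cell. Of the mitochondria-poor barcodes, 11 (0.861%) shared their barcode sequence with a barcode of another tumour, against 0.952% of all barcodes.

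The name nucleus-like applied to only part of the set. Malat1 is among the RNAs most enriched in nuclei, and by its share the barcodes fell into a group far above most intact cells and a group with little or none. The Malat1 share of a barcode's UMIs outside the mt- genes had a median of 0.574% in the set, near the 0.504% of intact barcodes, but few barcodes lay near that median. A share under 0.25% was found in 567 barcodes (44.4%), of which 342 (26.8% of the set) had no Malat1 UMI at all, and a share of at least 4% in 460 (36.0%). Among intact barcodes 22.3% had a share under 0.25%, 5 of 21912 had no Malat1 UMI and 0.342% had a share of at least 4%. Of low-RNA barcodes, 6.14% had no Malat1 UMI, 20.8% had some but under 0.25%, and 16.5% lay between 1 and 2%.

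**Figure D1:**
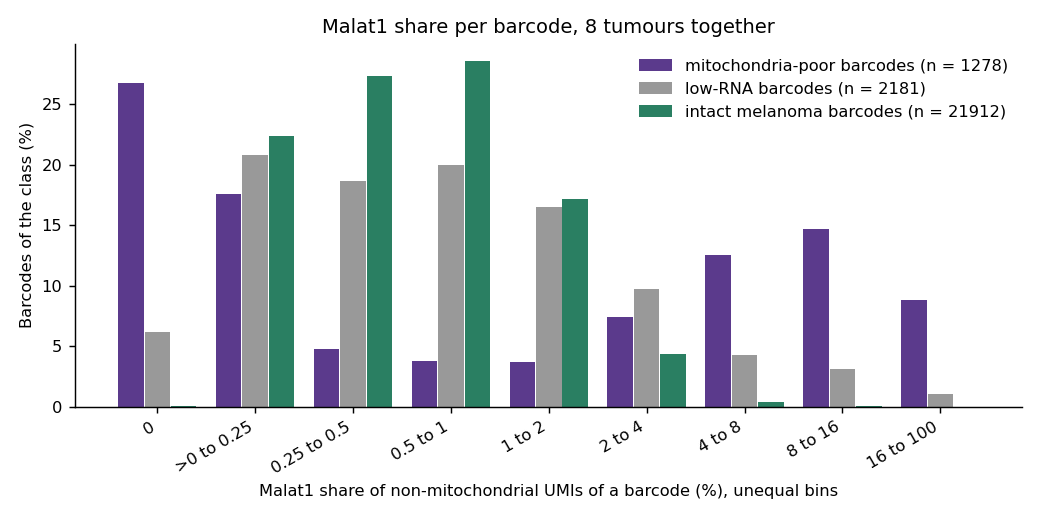
Malat1 share of each barcode's UMIs outside mt- genes (x axis, %, in bins of unequal width) against the percentage of the class's barcodes in each bin (y axis), for mitochondria-poor, low-RNA and intact melanoma barcodes of the 8 tumours together. The mitochondria-poor barcodes peak at 0 (26.8%) and again between 8 and 16% (14.7%), where intact barcodes are nearly absent.

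Both ends were also present at equal depth. When every barcode was thinned to 500 UMIs outside mt- genes (1 mitochondria-poor, 25 low-RNA and 0 intact barcodes were too shallow), 34.6% of mitochondria-poor barcodes had no Malat1 UMI, against 16.4% of low-RNA and 15.6% of intact barcodes. At the other end, 36.3% of mitochondria-poor barcodes kept at least 20 Malat1 UMIs, against 8.91% of low-RNA and 0.580% of intact barcodes. In the unthinned data no Malat1 UMI was found in 26.8%, 6.14% and 0.0228% of the barcodes of the 3 classes.

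To describe these ends separately, a share of 1% was used as a divide. It was chosen after the values were seen, so what follows from it is description without a test. The divide gave 602 Malat1-rich barcodes (47.1%, median share 7.91%) and 676 Malat1-poor barcodes (52.9%, median share 0%), and 95 barcodes (7.43%) lay between 0.5 and 2%. Malat1-rich barcodes had more UMIs (median 1558) than Malat1-poor ones (894.5). Their mt- shares were low in both, with medians of 0.227% and 0.177%, but somewhat higher in Malat1-rich barcodes. Of summed UMIs per tumour, mt- genes took 0.308% ± 0.0388 in Malat1-rich and 0.210% ± 0.0509 in Malat1-poor barcodes (mean ± SD, n = 8). Over all tumours the median share of pigment RNA was 2.15% of UMIs in Malat1-rich, 0.697% in Malat1-poor and 1.32% in intact barcodes. The medians had this order in 7 of 8 tumours, and in KO tumour 4 they were 0.426%, 0.485% and 1.32%.

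Both kinds occurred in every tumour, in proportions that varied widely. Malat1-rich barcodes were 25.3, 27.4, 54.6 and 79.1% of the set in WT tumours 1 to 4 and 32.3, 50.7, 41.8 and 33.3% in KO tumours 1 to 4. WT tumour 4, with the highest share, also held the most UMIs of the set. Sums over the whole set are therefore mixtures whose make-up changes from tumour to tumour, and most gene lists compared with intact barcodes are also given for Malat1-rich and Malat1-poor barcodes. The comparisons with low-RNA barcodes and between genotypes were made for the set as a whole.

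The nuclear noncoding RNAs are given first, Malat1 being the gene that made the divide. Malat1 (chromosome 19, 5795690 to 5802672, minus strand; GRCm38 with GENCODE vM21 here and below) had 26299 to 73413 CPM in the set over the 8 tumours, with a median of 40730. In intact barcodes it had 5842 to 8140 CPM, with a median of 6440, so that the ranges did not overlap. In Malat1-rich barcodes the level was 95688 ± 18544 CPM, and in Malat1-poor ones 1131 ± 467 (mean ± SD, n = 8). CPM totals include Malat1, so its high level lowers the CPM of every other gene in Malat1-rich barcodes. The levels and ratios given below for Malat1-rich barcodes carry this shift.

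Neat1 and Kcnq1ot1, which the divide did not use, split the same way. Neat1, the scaffold of paraspeckles (chromosome 19, 5824708 to 5845478), had 419 to 1304 CPM in Malat1-rich barcodes, with a median of 748. It had 8.25 to 80.5 CPM in Malat1-poor ones, with a median of 44.9, and 316 to 484 in intact ones, with a median of 385. Malat1-rich barcodes were above intact ones in 8 of 8 tumours and Malat1-poor ones below in 8 of 8. Over the whole set these opposite levels nearly cancelled, at 406 ± 183 CPM against 386 ± 49.5 in intact barcodes (edgeR log2 difference 0.01 ± 0.11 SE, adjusted p = 0.98). Kcnq1ot1, the antisense RNA of the Kcnq1 imprinted domain (chromosome 7, 143203458 to 143296549), had 459 ± 237 CPM in Malat1-rich, 10.7 ± 16.7 in Malat1-poor and 193 ± 28.8 in intact barcodes. Only 7 Kcnq1ot1 UMIs were counted in all Malat1-poor barcodes, and 5 of the 8 tumours had none there.

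Gm26532 and Gm26917, the other noncoding RNAs that were used to name the set, were also found mainly in Malat1-rich barcodes. Gm26532 (chromosome 8, 84208920 to 84209609) had 200 to 551 CPM there, with a median of 252. It had 11.6 to 20.5 CPM in intact barcodes and 9.82 ± 13.4 in Malat1-poor ones, with 7 UMIs in all. Gm26917 (chromosome 17, 39843013 to 39846341) had 331 ± 73.4, 42.9 ± 37.6 and 69.2 ± 17.9 CPM in Malat1-rich, Malat1-poor and intact barcodes. Low-RNA barcodes had as much Gm26917 as the mitochondria-poor set, at 198 ± 181 and 183 ± 82.6 CPM. Dct, the melanogenic enzyme dopachrome tautomerase and the fourth of the naming genes, had 15376 ± 4098 CPM in Malat1-rich and 3607 ± 1090 in Malat1-poor barcodes, with 6033 ± 684 in intact ones.

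**Figure D2:**
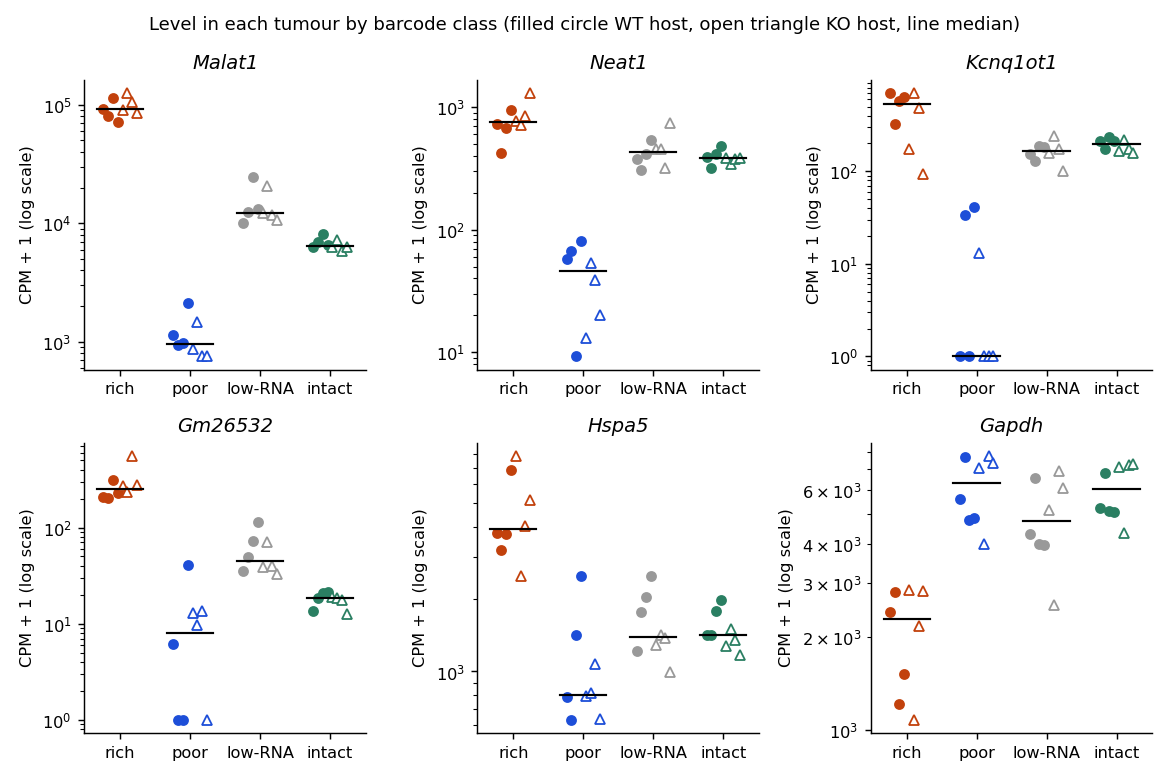
Level (y axis, CPM + 1, log scale) of 3 nuclear noncoding RNAs, Gm26532, an ER chaperone (Hspa5) and a glycolytic enzyme (Gapdh) in Malat1-rich and Malat1-poor mitochondria-poor barcodes, low-RNA barcodes and intact melanoma barcodes, 1 point per tumour with the median as a line. Neat1 lies between 419 and 1304 CPM in Malat1-rich and between 8.25 and 80.5 in Malat1-poor barcodes, and Gapdh is lower in Malat1-rich barcodes than in intact ones of the same tumour.

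A second kind of noncoding transcript was high in both groups. Gm42418 (chromosome 17, 39846958 to 39848788) and AY036118, which lies within it on the opposite strand (39847113 to 39848035), sit in a region linked to ribosomal RNA repeats, and their reads may not be told apart from those of rRNA. Gm42418 had 1510 to 10783 CPM in the set and 630 to 1845 in intact barcodes, higher in 8 of 8 tumours. It was 4.06-fold higher than in intact barcodes in Malat1-rich and 5.24-fold higher in Malat1-poor barcodes. It was as high in low-RNA barcodes (4907 ± 3337 CPM), and for the set against those the adjusted p was 0.62. In the set it reached 7270, 10783 and 8910 CPM in WT tumours 1 to 3, 4782 in KO tumour 4 and at most 1992 in the other 4. The same WT tumours 1 to 3 were the highest among intact barcodes. AY036118 had 359 ± 282 CPM in the set and 60.6 ± 86.9 in intact barcodes.

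Across all genes, the set was tested against intact barcodes with edgeR's quasi-likelihood test on UMI sums, with the tumour as a block. At an adjusted p (Benjamini-Hochberg) under 0.05, 1740 of 11238 genes passed, which is 15.5%; 824 (7.33%) were higher and 916 (8.15%) lower. DESeq2 called 836 higher and 281 lower, and without WT tumour 4 edgeR's lower genes numbered 593. The 12 largest increases with the same direction in all 8 tumours included Azgp1, a secreted zinc-binding glycoprotein, and the lysosomal protease Ctsl. Azgp1 had 95.2 to 516 CPM in the set, with a median of 281, and 21.1 to 53.8 in intact barcodes, with a median of 32.6, so that the ranges did not overlap. Its log2 difference was 3.08 ± 0.14 (SE), with an adjusted p of 2.7e-52. Ctsl had 320 to 1695 CPM against 142 to 241, again without overlap, and a log2 difference of 1.94 ± 0.11. The channel-like metalloreductase Steap1 (2.08 ± 0.19), the phosphodiesterase Pde4d (1.63 ± 0.17), Ahnak2 (1.74 ± 0.14), the noncoding RNA Gm26699 (2.06 ± 0.19) and the transcript AC149090.1 also rose. These 7 genes and Timp3, a secreted inhibitor of metalloproteinases that rose by 2.07 ± 0.20, had higher levels in Malat1-rich than in Malat1-poor barcodes in 8 of 8 tumours. Of the other 4 leading increases, Cd74 and AY036118 did so in 7, the chemokine gene Ccl5 (1.82 ± 0.17) in 5 and Gm42418 in 4 of 8.

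Of the 381 noncoding genes tested, 64 (16.8%) were higher and 0 lower. In the list of nuclear noncoding RNAs, 6 of the 11 members tested rose and 0 fell, with a median log2 difference of 1.00 where all genes tested had a median of -0.07. Neat1 (above) and Kcnq1ot1 (0.28 ± 0.13, adjusted p = 0.15) did not pass.

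Many mRNAs of the ER rose. Of 30 ER chaperones and folding enzymes, 14 rose and 1 fell (median log2 difference 0.27). Hspa5, the main ER chaperone BiP, had 1542 to 6053 CPM in the set, with a median of 2365, and 1174 to 1977 in intact barcodes, with a median of 1412. It was higher in 8 of 8 tumours (log2 difference 0.76 ± 0.09, adjusted p = 3.1e-13). The protein disulfide isomerase Pdia6 rose by 0.62 ± 0.10 and the lectin chaperone Calr by 0.30 ± 0.09, and Sec61b, a small subunit of the translocon, fell by 0.27. Hsp90b1 rose by 0.33 ± 0.09, but among barcodes of under 2000 UMIs its difference was -0.05.

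Lysosomal and secretory membrane genes followed. Of 29 tested, 18 rose and 0 fell (median 0.45), among them the protease Ctsd (0.85 ± 0.10), the tetraspanin Cd81 (0.68 ± 0.10) and Ctsz (0.32 ± 0.09). Among 29 melanosome and pigment cell genes outside the rule, 6 rose and 7 fell: the melanosomal exchanger Slc24a5 rose by 0.70 ± 0.10 and Cd63 by 0.55 ± 0.08, while the melanosomal glycoprotein Gpnmb fell by 0.39.

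In the Malat1-rich barcodes these 3 lists stood at 1.81, 2.12 and 1.53 times the summed CPM of intact barcodes, above them in 8 of 8 tumours each. In the Malat1-poor barcodes they stood at 0.823, 0.756 and 0.673 times, above in 0, 1 and 0 of 8 tumours. For Hspa5 the levels were 4634 ± 1858 CPM in Malat1-rich, 1079 ± 629 in Malat1-poor and 1486 ± 267 in intact barcodes. Within single tumours, the share of UMIs from ER chaperones and folding enzymes went with a barcode's Malat1 share with a Spearman's rho of 0.184 to 0.480 in 8 of 8 tumours (63 to 235 barcodes each). That is a description over barcodes of 1 library, which differ in depth. For cytosolic ribosomal protein genes, rho ran from -0.375 to 0.0993.

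Falls outnumbered rises in the glycolysis, cytoskeleton, proteasome and translation factor lists. Of 19 glycolysis enzymes 2 rose and 8 fell (median -0.26). Gapdh had 2137 to 5935 CPM in the set, with a median of 5018, and 4367 to 7305 in intact barcodes, with a median of 6038. The ranges overlapped, but it was lower in 8 of 8 tumours (log2 difference -0.59 ± 0.08, adjusted p = 1.5e-10). Of 30 actin and tubulin cytoskeleton genes 4 rose and 17 fell (median -0.31), such as Actb (-0.49 ± 0.08) and the actin-binding Pfn1 (-0.63 ± 0.09). Of 37 proteasome genes 0 rose and 14 fell (median -0.26), and of 37 translation factors 1 rose and 12 fell (median -0.23), with the elongation factor Eef1a1 at -0.32 ± 0.07.

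These falls lay in the Malat1-rich barcodes. Glycolysis enzymes stood there at 0.443 times the intact level, cytoskeleton genes at 0.539, proteasome genes at 0.581 and translation factors at 0.667, below intact barcodes in 8 of 8 tumours. In Malat1-poor barcodes the same lists stood at 1.06, 1.08, 1.07 and 1.09 times, above in 7, 7, 7 and 8 of 8 tumours. Gapdh had 2105 ± 739 CPM in Malat1-rich and 6133 ± 1487 in Malat1-poor barcodes, with 6043 ± 1192 in intact ones. The sum of the 83 cytosolic ribosomal protein genes stood at 0.922 and 1.08 times the intact level. The CPM totals hold Malat1, at 95688 CPM in Malat1-rich and 6712 in intact barcodes. A ratio as near 1 as 0.922 is therefore not read as a fall of these genes. Over the whole set 9 of 80 ribosomal protein genes tested rose and 9 fell (median -0.04). Rps26, one of those that rose (0.67 ± 0.08), was above intact barcodes in both groups, at 2543 ± 324 and 2114 ± 469 CPM against 1420 ± 178.

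**Figure D3:**
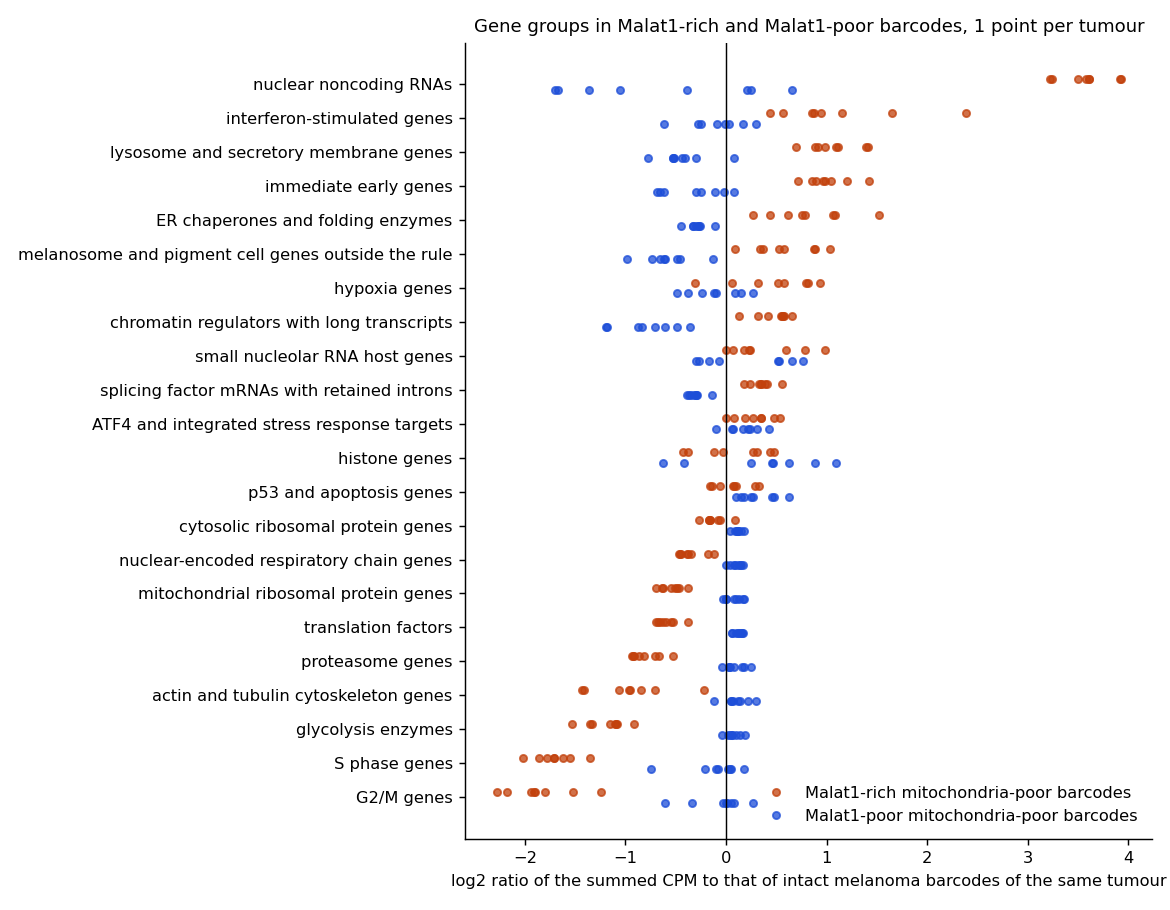
log2 ratio of the summed CPM of each gene list (y axis) in Malat1-rich and in Malat1-poor barcodes to that in intact melanoma barcodes of the same tumour (x axis), 1 point per tumour. ER, lysosome and melanosome lists lie right of 0 for Malat1-rich and mostly left for Malat1-poor barcodes, and glycolysis, cytoskeleton and cell-cycle lists lie left of 0 for Malat1-rich barcodes and on both sides of 0 for Malat1-poor ones, with WT tumour 4 farthest left in the cell-cycle lists.

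mRNAs of mitochondrial proteins encoded in the nucleus were tested apart from the mt- genes, which the rule used. Of 87 nuclear-encoded respiratory chain genes 6 rose and 19 fell (median -0.16), and of 77 mitochondrial ribosomal protein genes 1 rose and 12 fell (median -0.22). The complex IV subunit Cox4i1 had 1405 ± 150 CPM in the set and 1392 ± 68.8 in intact barcodes, and the ATP synthase subunit Atp5b, which fell by 0.47, had 998 ± 186 and 1355 ± 127. The 2 lists stood at 0.790 and 0.689 times the intact level in Malat1-rich and at 1.07 and 1.06 times in Malat1-poor barcodes.

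Cell-cycle genes fell in the set against intact barcodes with no exception in direction. Against low-RNA barcodes, which match the set in UMI range, the lists did not fall (median 0.03 for S phase and -0.002 for G2/M genes). Of 30 S phase genes 22 fell and 0 rose (median -0.71), and of 30 G2/M genes 24 fell and 0 rose (median -0.71). Hmgb2, a chromatin protein of the G2/M list, had 130 to 547 CPM in the set, with a median of 411, and 486 to 662 in intact barcodes, with a median of 603 (log2 difference -0.71 ± 0.11, adjusted p = 2.6e-08). The replication helicase subunits Mcm3 (-1.17 ± 0.17) and Mcm5 (-0.99 ± 0.18), the spindle factor Tpx2 (-1.10 ± 0.18) and Mki67 (-1.37 ± 0.14) were among the 12 with the largest falls. The S phase and G2/M lists stood at 0.310 and 0.289 times the intact level in Malat1-rich barcodes, below it in 8 of 8 tumours, and at 0.940 and 0.971 times in Malat1-poor ones, above it in 4 of 8. Ube2c, a ubiquitin-conjugating enzyme of mitotic exit, had 24.3 ± 19.2, 276 ± 87.0 and 215 ± 19.2 CPM in Malat1-rich, Malat1-poor and intact barcodes. Mki67 was low in both groups, at 74.7 ± 35.1 and 90.7 ± 21.8 CPM against 213 ± 25.8.

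Of 21 immediate early genes, which cells transcribe within minutes of a stimulus, 10 rose and 0 fell (median 0.46). The AP-1 genes Fosb (1.37 ± 0.13) and Jun (0.72 ± 0.10) and the matricellular gene Cyr61 (1.23 ± 0.13) rose, while Fos had -0.28 ± 0.11 (adjusted p = 0.072). Of 29 interferon-stimulated genes 6 rose and 1 fell (median 0.42), such as the class I genes H2-K1 (1.13 ± 0.13) and H2-D1 (1.10 ± 0.12). Of 19 hypoxia genes 5 rose and 1 fell (median 0.27), with the ER oxidase Ero1l at 0.76 ± 0.10. The immediate early, interferon and hypoxia lists stood at 2.04, 2.18 and 1.42 times the intact level in Malat1-rich barcodes and at 0.809, 0.982 and 0.944 times in Malat1-poor ones. At least 2 UMIs of host cell markers were in 4.65% of Malat1-rich and 2.37% of Malat1-poor barcodes. In Malat1-rich barcodes of KO tumours 4 and 1 it was 23.8 and 13.3%. The same tumours had the highest immediate early (5712 and 4605 CPM) and interferon levels (4439 and 3492 CPM) in Malat1-rich barcodes. The part of host cells in these levels was not tested.

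Of 28 targets of ATF4 and the integrated stress response 10 rose and 2 fell (median 0.13). The stress-induced chromatin protein Nupr1 had 313 to 492 CPM in the set and 122 to 313 in intact barcodes, higher in 8 of 8 tumours (0.91 ± 0.11, adjusted p = 3.5e-12). It was alike in Malat1-rich and Malat1-poor barcodes, at 396 ± 78.9 and 405 ± 80.6 CPM. Cth, the cystathionine gamma-lyase of cysteine synthesis, rose by 1.00 ± 0.18, and the amino acid transporter subunit Slc3a2 rose by 0.59 ± 0.10. Slc3a2 had 971 ± 261 CPM in Malat1-rich and 246 ± 93.8 in Malat1-poor barcodes. The p53 target Cdkn1a rose by 0.65 ± 0.12, with 217 ± 69.0 and 301 ± 81.3 CPM in the 2 groups against 163 ± 18.6. Of 16 p53 and apoptosis genes 3 rose and 1 fell (median 0.19). The summed ATF4 target list was above its intact level in 7 of 8 tumours both in Malat1-rich and in Malat1-poor barcodes, and the p53 list stood at 1.05 and 1.25 times its intact level.

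Genes with long exons and genes with short exons moved in opposite directions in the 2 groups. The 10836 genes tested that had a GENCODE vM21 length were put in quintiles of summed exon length. In Malat1-rich barcodes the median log2 difference from intact barcodes (of CPM + 20) rose from -0.16 in the shortest quintile (374 to 2596 bases) to 0.14 in the longest (7901 to 123179 bases). In Malat1-poor barcodes it fell from 0.06 to -0.22. Dst, a very long transcript for a cytoskeletal linker, had 993 ± 190 CPM in Malat1-rich and 80.0 ± 32.3 in Malat1-poor barcodes, with 335 ± 15.1 in intact ones. The list of chromatin regulators with long transcripts stood at 1.40 and 0.592 times the intact level, above it in 8 and 0 of 8 tumours. Over the whole set 4 of its 32 genes rose and 3 fell (median 0.05). Splicing factor genes with retained introns stood at 1.28 and 0.809 times, and 8 of 27 rose and 4 fell (median 0.11), with Rbm39 at 0.32 ± 0.10 and Hnrnpu at -0.39 ± 0.10.

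**Figure D4:**
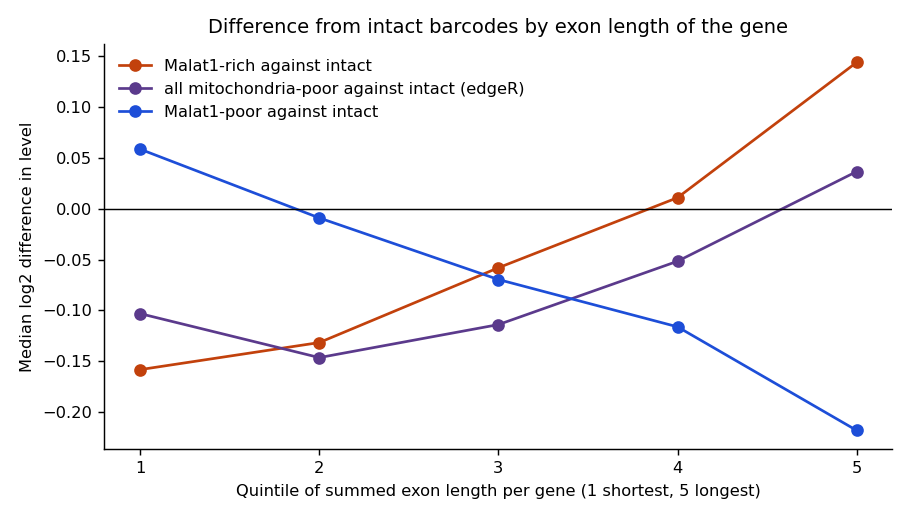
Median log2 difference in level from intact melanoma barcodes (y axis) by quintile of summed exon length of the gene (x axis, 1 shortest to 5 longest) for Malat1-rich, Malat1-poor and all mitochondria-poor barcodes. The Malat1-rich line climbs from -0.16 to 0.14 while the Malat1-poor line drops from 0.06 to -0.22.

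The 10 genes whose levels were most like those of Malat1 over 24 sums (8 tumours by 3 classes), among 3231 genes with a mean of at least 50 CPM, were Ahnak2, Gm26532, AC149090.1, Creg1, Azgp1, Pde4d, Rps26, Cdk12, Gjc3 and Ctsl. Pearson's r of log2(CPM + 1) was 0.940 for Ahnak2 and 0.853 for Ctsl. The 3 classes lie at different levels, so this describes mainly the classes.

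Against low-RNA barcodes, which match the set in UMI range, 834 of 4545 genes passed (18.3%), with 404 higher (8.89%) and 430 lower (9.46%). Without the TMM scaling of library sizes the numbers were 277 higher and 541 lower. DESeq2 called 210 higher and 268 lower, barcodes of under 2000 UMIs gave 166 and 287, and no filter on low counts gave 433 and 1140. ER genes had 11 of 30 higher and 0 lower (median 0.27, where all genes tested had 0.02), and Hspa5 was higher by 0.77 with an adjusted p of 3.4e-05. The leading increases were Azgp1 (2.54), Steap1 (1.63), Cth (1.45), Gm26699 (1.40), the connexin Gjc3 (1.36) and Htatip2 (1.24). Cytosolic ribosomal protein genes, close to even against intact barcodes, had 24 of 80 higher and 0 lower (median 0.13). Several lists did not repeat their direction against intact barcodes: glycolysis enzymes had 5 of 16 higher and 0 lower (median 0.24), proteasome genes 7 of 33 and 0 (0.16), respiratory chain genes 14 of 79 and 0 (0.19) and translation factors 7 and 4 of 37 (0.14). Lysosomal and secretory membrane genes had 5 of 27 higher and 6 lower (0.03), nuclear noncoding RNAs 1 and 1 of 6 (0.08), and interferon-stimulated genes 1 and 4 of 8 (-0.54). Cytoskeleton genes had 1 of 30 higher and 19 lower (median -0.50), with Actb at -1.10. Immediate early genes, which rose against intact barcodes, had 1 of 20 higher and 11 lower (median -0.51). Cell-cycle genes had few calls and medians near that of all genes. Of 17 S phase genes 1 was higher (median 0.03), and of 22 G2/M genes 2 were higher and 1 lower (median -0.002).

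Host cells contributed more to low-RNA barcodes than to the set. At least 2 UMIs of any host cell type's markers were found in 643 of 2181 low-RNA barcodes (29.5%), in 1561 of 21912 intact ones (7.12%) and in 44 of 1278 mitochondria-poor ones (3.44%). Intact barcodes reach this cut more easily, with a median of 10772 UMIs against 1235.5 in the set. By mean CPM the set was above intact barcodes, at 251 against 69.7 for fibroblast and 184 against 19.1 for macrophage and myeloid markers. Intact barcodes had to hold at least 0.3% pigment UMIs, a limit that 1105 of the 1278 mitochondria-poor barcodes (86.5%) reached. Host marker levels of the 2 classes were thus set side by side under unlike pigment limits. The part of these limits in the difference was not tested. Among the largest falls against low-RNA barcodes were the antigen-presenting gene H2-Ab1, the myeloid genes Alox5ap, C1qa, Lyz2 and C1qc, and the matrix gene Mgp. Without all barcodes with such markers, 575 of 3915 genes passed, 330 higher and 245 lower.

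In the set itself, 6 fibroblast markers summed to 490 UMIs, with 150 in 1 barcode, and 0 to 950 CPM per tumour, Col3a1 being the most abundant. All 5 of those tested rose against intact barcodes, but Col3a1 was above intact barcodes in 3 of 8 tumours only. The unlike pigment limits given above apply to this rise and to that of the myeloid markers, so neither is read as a trait of the set. The 7 macrophage and myeloid markers summed to 248 UMIs, and all 6 tested rose, Lyz2 with 91 UMIs being the most abundant. Their CPM per tumour was 14.1 to 335 except in KO tumour 4, where it was 761 and 12.7% of barcodes had at least 2 host marker UMIs. The T/NK list gave 3 UMIs, all of the leukocyte gene Ptprc, with Cd3d and Cd3e at 0, and the dendritic list gave 4, all of Ccr7, with Flt3 and Xcr1 at 0. The B and plasma cell list gave 11 UMIs, 4 of them in 1 barcode, with Igkc (6 UMIs) the most abundant and Ms4a1 at 0. Erythroid genes gave 278 UMIs, all in 1 Malat1-poor barcode. Cd74, the class II invariant chain, had the largest log2 difference among the 12 leading increases against intact barcodes (3.54 ± 0.28, from 124 UMIs), and it passed also without barcodes with host markers. Without those barcodes, 1644 genes passed against intact barcodes.

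The share of barcodes that were mitochondria-poor was 2.62, 2.48, 5.29 and 4.37% in WT tumours and 2.09, 4.98, 1.94 and 1.44% in KO tumours, of barcodes with 200 to 5000 genes. The means were 3.69% ± 1.37 and 2.61% ± 1.60 (SD, n = 4 each), a difference of -1.08 percentage points that was within the spread between tumours (2-sided exact permutation test, p = 0.286, where 0.0286 is the smallest that 4 against 4 allows). It was -0.543 without WT tumour 3, -0.686 without KO tumour 4 and -1.86 without KO tumour 2. The ranges overlapped, since KO tumour 2 was second of all 8. Malat1-rich barcodes were 1.92% ± 1.46 of barcodes in WT and 1.12% ± 0.943 in KO tumours, and Malat1-poor ones 1.77% ± 0.626 and 1.49% ± 0.670.

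**Figure D5:**
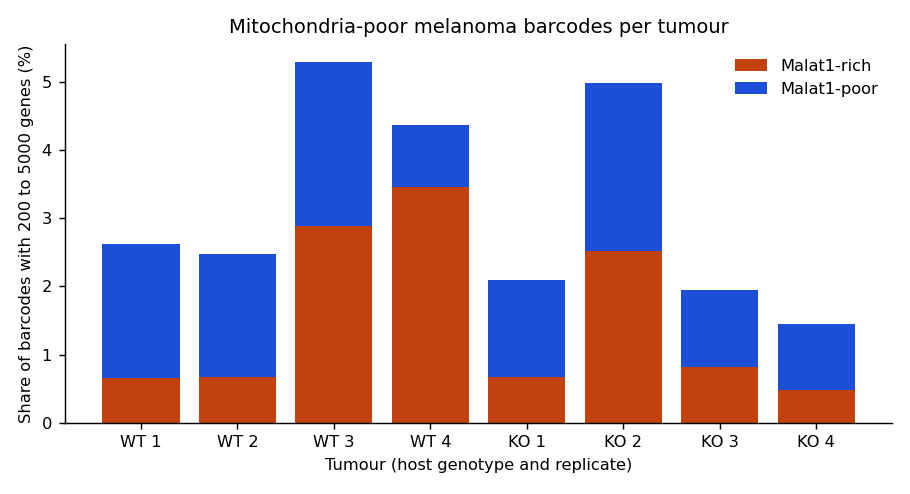
Mitochondria-poor barcodes as a percentage of barcodes with 200 to 5000 genes (y axis) in each tumour (x axis, host genotype and replicate), stacked as Malat1-rich and Malat1-poor. Stacks reach 5.29% in WT tumour 3 and 4.98% in KO tumour 2, and the Malat1-poor part varies less than the Malat1-rich part.

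Host genotype made no call within the set. With edgeR, 0 of 3216 genes passed (0%), and 107 had an unadjusted p under 0.05. DESeq2 called 1, the galectin gene Lgals3, higher in KO tumours (log2 difference 1.28 ± 0.28). Without WT tumour 4, edgeR called 3, all lower in KO tumours: Gm42418 (-1.90), the linker histone gene Hist1h1e (-2.12) and Lars2 (-1.91), a mitochondrial leucyl-tRNA synthetase. These 4 genes were named after their values were seen, and without a filter on low counts 28 of 14081 genes passed. Atf4, which the melanoma cells of both hosts carry, had 392, 434, 314 and 446 CPM in the set in WT tumours and 405, 376, 572 and 274 in KO tumours. The ranges overlapped (edgeR log2 difference 0.02, adjusted p = 0.999). Over all genes tested the median log2 difference (KO minus WT) was -0.03, with 1464 of 3216 above 0. Without any call, glycolysis enzymes had 15 of 16 above 0 (median 0.37), cytoskeleton genes 26 of 28 (0.34), hypoxia genes 10 of 11 (0.42) and ER genes 5 of 30 (-0.28). Intact barcodes of the same tumours had WT and KO means on the same sides, at 18148 and 21552 CPM for glycolysis, 22482 and 25459 for cytoskeleton, 2113 and 2559 for hypoxia and 13858 and 12386 for ER genes, so the direction was not particular to the set. These 4 lists also differed between Malat1-rich and Malat1-poor barcodes, and the Malat1-rich share varied between tumours. The part of that share in these genotype values was not tested.

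The genotype difference in the set was also compared with that in intact barcodes of the same tumours. Of 11768 genes, 4 passed (0.034%), all with a lower KO minus WT difference in the set than in intact barcodes: the acute phase gene Saa3 and the fibroblast collagen genes Col1a1, Col1a2 and Col3a1. Saa3 had 433, 0, 254 and 19.9 CPM in WT tumours and 7.36, 22.1, 0 and 0 in KO tumours, from 207 UMIs, so that 2 WT tumours carried the signal. Its difference was -3.95 ± 0.55 on the log2 scale. Fibroblast marker UMIs were likewise concentrated, with 252 of 490 in WT tumour 1 and 150 of those in 1 barcode. The summed fibroblast markers averaged 309 CPM in WT and 194 in KO tumours in the set. In intact barcodes they averaged 38.0 and 101 CPM, so the intact side of the comparison moved the other way. Without WT tumour 1 there were 9 calls, of which 7 were higher (Bgn, Il33, Spp1 and Vim among them) and 2 lower, Saa3 and Gpnmb, and none of the 3 collagen genes passed. The collagen genes were not called without WT tumour 3 either, where Saa3 was the 1 call, nor without KO tumour 4, where Saa3, Cck and Gm42418 passed. Without KO tumour 1 there were 0 calls (394 at an unadjusted p under 0.05). Without WT tumour 4 there were 9, of which 8 were lower, Saa3 and the 3 collagen genes included, and 1 was higher. The genes named from these fits were chosen after their values were seen.

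Some genes stood apart in Malat1-poor barcodes. Apart from Gm42418 and AY036118, the genes highest in them relative to intact barcodes with one direction in 8 of 8 tumours included Cth, at 103 ± 69.9 CPM against 38.6 ± 14.6, and the stress-response transcription factor gene Atf5, at 192 ± 78.6 against 117 ± 43.3. The calcium-binding protein genes S100a11 (201 ± 54.1 against 110 ± 13.3) and S100b (248 ± 56.9 against 157 ± 18.9) were of the same kind. The lowest, after the nuclear RNAs and Dst, included the phosphodiesterase Pde10a (14.9 ± 15.7 against 102 ± 32.4), the splicing-linked cyclophilin Nktr (19.3 to 99.3 against a mean of 226) and the actin crosslinker Flna (42.3 ± 6.63 against 144 ± 11.9). Many of these levels rest on few UMIs, such as 13 for Pde10a and 77 for Cth in all Malat1-poor barcodes.

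Across barcodes that met the gene, UMI and pigment limits at any mt- share, the Malat1-rich share did not follow the mt- share in one direction. It was 40.5% of 348 barcodes with under 0.1% mt- UMIs, 45.7% of 700 between 0.1 and 0.5%, and 61.3% of 230 between 0.5 and 1%. It then declined to 28.1% of 1355 barcodes between 4 and 7.5% and 24.9% of 1349 between 7.5 and 15%, and was 65.2% of 2257 barcodes with at least 15%. Barcodes without any Malat1 UMI were most frequent at the low end, at 31.0% under 0.1% mt- UMIs and 5.68% between 4 and 7.5%. Barcodes with at least 2 UMIs of host cell markers moved along the same axis, from 1.72% under 0.1% mt- UMIs to 39.1% between 2 and 4% and 2.61% at 15% or more, and their part in the Malat1-rich share was not tested.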

How the data were processed

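Droplet single-cell RNA libraries from 8 tumours, 1 per mouse, were used. The deposited files hold UMI counts per gene and barcode, which the authors made from the reads before deposit and did not normalize. The submitters' processing notes name Cell Ranger 3.1.0, Seurat 3.2.1 and GRCm38. The labels give a V3 kit, whereas the study's methods give a V2 kit. Protein features were not analysed, and no doublets were removed and no doublet caller was run here.

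Barcodes were assigned to classes by the limits given in the report, and UMIs were summed per tumour and class. The mt- genes and the 5 pigment genes of the rule were left out of CPM totals and of the fits that compared classes. The fit of genotype within the set kept all genes, mt- and pigment genes included. Library totals were 37283598 to 74942137 UMIs. edgeR 4.0.16 (R 4.3.3, limma 3.58.1) with TMM scaling, filterByExpr and the quasi-likelihood test was fitted to the sums, with the tumour as a block between classes, and p-values were adjusted by Benjamini-Hochberg over all genes tested with a threshold of 0.05. Malat1, Gm26917, Gm26532 and Dct, which named the set, have no p against other classes. Shares were compared by an exact permutation test over 70 assignments (scipy 1.17.1). Positions and exon lengths came from GENCODE vM21 (GRCm38). Interval and floor values cover counting error only.

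Genes were named by rule: the most abundant of each list, the 12 largest called differences in each direction against intact barcodes (6 against low-RNA barcodes) that agreed in all 8 tumours with a mean of at least 50 CPM, Atf4 and genotype calls, and the 10 genes most like Malat1. Genes described only for Malat1-poor barcodes, and genotype calls made only under an alternative, were picked from their values. The set, the gene lists and the tests were chosen with earlier results of these data known, and the Malat1 limit after its values were seen.

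Same-numbered tumours came from different mice, some of different sex, so the number was not used as a block. Alternatives were DESeq2 1.42.0, no TMM, other filters, other limits on mt-, UMI and pigment content, no barcodes with host markers, host sex, and each tumour left out. The fit was tested on simulated data with known fold changes.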

Additional observations from a re-analysis of the deposited data

Results flagged for a closer look

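Within groups of 4 tumours, 3 of 66 checks found a tumour far from the other 3, and chance gives about 1 in 20. The median pigment share of mitochondria-poor barcodes was 2.5% in WT tumour 4 and 0.909 to 1.03% in the other WT tumours. The summed level of cytosolic ribosomal protein genes in the set was 194575 CPM in WT tumour 4 and 228929 to 235797 CPM in the other WT tumours. WT tumour 4 also had the highest Malat1-rich share of the set (79.1%), and the part of that share in both values was not tested. The summed level of interferon-stimulated genes was 1291 CPM in KO tumour 3 and 2039 to 2141 CPM in the other KO tumours.

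For 4 genes the KO minus WT difference was lower in the set than in intact barcodes by edgeR's test of the difference itself: Saa3 by -3.95, Col1a2 by -2.10, Col3a1 by -1.96 and Col1a1 by -1.87 on the log2 scale. The summed fibroblast markers averaged 309 CPM in WT and 194 in KO tumours in the set, and 38.0 and 101 CPM in intact barcodes. Of the 490 fibroblast marker UMIs of the set, 150 lay in 1 barcode of WT tumour 1. Without that tumour Saa3 passed the test and Col1a1, Col1a2 and Col3a1 did not, and without KO tumour 1 none of the 4 passed.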

How the results depend on the processing

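Of 187 values of comparisons under alternatives, 164 kept their direction and stayed within the range set for them and 23 moved. The 115 named genes were followed over 17 settings, and not every gene had a result in every setting. Of the results, 1790 kept their call, 97 lost it, 60 gained it and 1 reversed: Hsp90b1 against intact barcodes, at -0.0543 among barcodes of under 2000 UMIs. Against intact barcodes, DESeq2 called 1117 genes (836 higher, 281 lower), genes with a mean of at least 50 CPM gave 875 (522 higher, 353 lower), and barcodes of under 2000 UMIs gave 478 higher. Leaving out each tumour gave 1226 to 1841 calls, with 619 to 873 higher and 593 to 968 lower. Against low-RNA barcodes, DESeq2 called 478 (210 higher, 268 lower), no filter gave 1573 (1140 lower), barcodes of under 2000 UMIs gave 453 (166 higher) and leaving out barcodes with host markers gave 245 lower. Leaving out each tumour gave 604 to 1090, with 284 to 541 higher and 320 to 549 lower. For genotype in the set, DESeq2 and at least 3 pigment UMIs called 1 gene each, no filter 28, and leaving out each tumour 0 to 3. The difference in genotype effect had 0 to 9 calls when each tumour was left out. The causes of these shifts were not tested. The share of barcodes by genotype differed by -1.86 to -0.543 percentage points when each tumour was left out. The 50 CPM filter and the other Malat1 limits were chosen after seeing the data.

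With the replicate number as a replicate block, genotype in the set had 0 calls (92 at an unadjusted p under 0.05, against 107 without it). With host sex as a covariate it had 0.

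Depth limits the set: 3 counts correspond to 7.48 to 35.7 CPM per tumour, and to at most 93.1 CPM in Malat1-rich barcodes, so that absent calls for genes of low level say little.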

Other observations

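Histone genes, most of whose mRNAs lack a poly(A) tail, had 2 of 29 tested higher and 0 lower in the set against intact barcodes (median log2 difference 0.34), a share close to the 7.33% of all genes called higher, and the list stood at 1.10 times the intact level in Malat1-rich and 1.40 times in Malat1-poor barcodes. Of 3 small nucleolar RNA host genes tested, 2 rose and 0 fell (median 0.41).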
